A study of Mus musculus with 24 samples.

Results

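Skeletal muscle genes were followed in endometriosis lesions of mice, with the uterus as background. The set holds 40 genes of the 56691 in the count table: contractile proteins of fast, slow and developing fibres, Z-disc and titin proteins, calcium handling proteins, enzymes of energy supply and transcription factors of muscle precursors. The genes were chosen by name after high levels of muscle genes had been seen in lesion libraries of these same data. Their levels in lesions, and every difference between lesions and uterus, are therefore given as a description with no p-value. Where a count of calls in lesions is given, it restates that choice and supports nothing. All 40 symbols were found once in the table.

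RNA-seq counts were available for 24 libraries in 6 groups of 4. Lesions were collected 3 months and 1 month after surgery, eutopic uterus (the uterus in its normal place in mice with endometriosis) at both times, and uterus of mice after sham surgery at both times. All mice were of mixed C57BL/6 and SV129 background, had surgery at 8 weeks of age, were mated at the given time after it and gave tissue on day 3.5 of pregnancy. The labels give the lesions the genotype Pgrcre/+Rosa26mTmG/+, in which Cre is driven from the progesterone receptor gene and acts on a fluorescent reporter, and give eutopic and sham uteri Rosa26mTmG/+ alone. The study's design text gives the Cre genotype to the mice with endometriosis, whose eutopic uteri the labels list without Cre, so which tissues carried it is not settled. By the labels, genotype and tissue cannot be told apart. The endometriosis mice were described as subfertile at 3 months and as fertile at 1 month, and all sham mice as fertile. The libraries are not tied to animals in the labels, so p-values measure only the spread between these samples, which may be technical.

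Skeletal muscle contracts when myosin heavy chains, each carrying an essential and a regulatory light chain, pull on actin filaments that troponin opens in response to calcium. Fast and slow fibres use different genes for most of these proteins, and the fast heavy chains Myh4, Myh1 and Myh2 mark the IIb, IIx and IIa fibre types. Embryonic and perinatal heavy chains, Myh3 and Myh8, mark developing or regenerating fibres. The uterine wall is smooth muscle, which has its own myosin and actin genes, so most of these genes are low there. The mouse body wall and the muscles next to it hold skeletal fibres, mostly of fast types in limb and trunk.

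The promoters of 3 genes are shown, those on which the fibre type and the background turn: Myh4 (ENSMUSG00000057003.13), the fastest heavy chain, Myh7 (ENSMUSG00000053093.17), the slow heavy chain, and Acta1 (ENSMUSG00000031972.6), skeletal actin, which had the highest uterine level per exon length of the 40. Each sequence is the 250 bases before the annotated start, on the gene's own strand, from RefSeq in build GRCm38.p6. Myh4 lies on the plus strand at chr11:67237562-67237811, Myh7 on the minus strand at chr14:54994550-54994799 and Acta1 on the minus strand at chr8:123894776-123895025. Capitals mark E-boxes (CANNTG, the letters that myogenic factors such as Myod1 bind), CArG boxes (the site of serum response factor) and TATAAA.
Myh4: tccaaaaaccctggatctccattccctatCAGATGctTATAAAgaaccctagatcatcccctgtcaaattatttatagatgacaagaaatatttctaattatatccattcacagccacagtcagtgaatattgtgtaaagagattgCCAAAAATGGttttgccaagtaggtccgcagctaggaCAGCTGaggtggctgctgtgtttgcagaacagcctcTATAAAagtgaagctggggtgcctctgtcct
Myh7: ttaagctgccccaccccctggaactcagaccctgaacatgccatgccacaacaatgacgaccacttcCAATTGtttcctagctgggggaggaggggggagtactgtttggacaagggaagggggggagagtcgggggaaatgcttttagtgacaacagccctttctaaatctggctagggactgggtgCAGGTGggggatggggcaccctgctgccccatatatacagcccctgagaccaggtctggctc
Acta1: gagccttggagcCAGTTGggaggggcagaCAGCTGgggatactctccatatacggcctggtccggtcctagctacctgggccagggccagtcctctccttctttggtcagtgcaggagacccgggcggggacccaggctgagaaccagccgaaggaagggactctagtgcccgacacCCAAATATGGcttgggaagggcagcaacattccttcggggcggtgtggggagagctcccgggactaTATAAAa

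Of the 40 genes, 31 had such a window in the table, 37 windows in all. An E-box stood in 31 of the 37 windows (83.8%), against 66.2% of all 32817 windows of that length. A CArG box stood in 3 of them (8.11%), those of Acta1, Myh4 and Myl3, against 1.47% of all windows, and the MEF2 site in 1 (2.7%), against 0.509%. TATAAA stood in 5 (13.5%), against 7.6%. The first 3 motifs read the same on both strands, TATAAA was read on the gene's strand only, and 1 letter run can belong to more than 1 motif. In Acta1 the CArG box ended 64 bases before the start, and in Myh4 95 bases before it. These are matches of letters in a short window and show no binding.

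The libraries held 45133642 to 59407134 counts each, and a count of 0 allows a level of up to 0.0479 to 0.08 CPM, depending on the library (3 counts, counting error only). CPM are counts scaled to library size with TMM factors. Some lesion libraries stood apart from their groups in genes of other tissues. At 3 months, lesion library 1 held 23300 CPM of 10 genes of ovarian steroid cells, against 10.7 to 18.1 CPM in the 16 uterine libraries, and its 10 uterine genes summed to 216 CPM, against 1610 to 1990 CPM in uterus. Lesion library 2 at 3 months was as low in the uterine genes, at 158 CPM, and lesion library 2 at 1 month held 83700 CPM of 12 pancreas and liver genes. Results that rest on these libraries are given library by library.

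In lesions at 3 months, the 40 genes summed to 156 CPM in library 1, 80200 CPM in library 2, 26400 CPM in library 3 and 14100 CPM in library 4. Lesions at 1 month held 370, 2370, 332 and 228 CPM in libraries 1 to 4. Eutopic uterus held 198 to 274 CPM at 3 months and 218 to 278 CPM at 1 month, and sham uterus 181 to 351 CPM at 3 months and 262 to 459 CPM at 1 month. Libraries 2, 3 and 4 at 3 months and library 2 at 1 month thus lay above every uterine library, library 1 at 3 months lay below all of them, and the other 1-month lesions lay among them. The lesion means were 30200 ± 35000 CPM at 3 months and 825 ± 1030 CPM at 1 month (SD, n = 4 each), so that the spread among lesions of 1 group exceeded its mean. In bulk tissue, fewer cells of a type and less RNA per cell cannot be told apart.

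**Figure D1:**
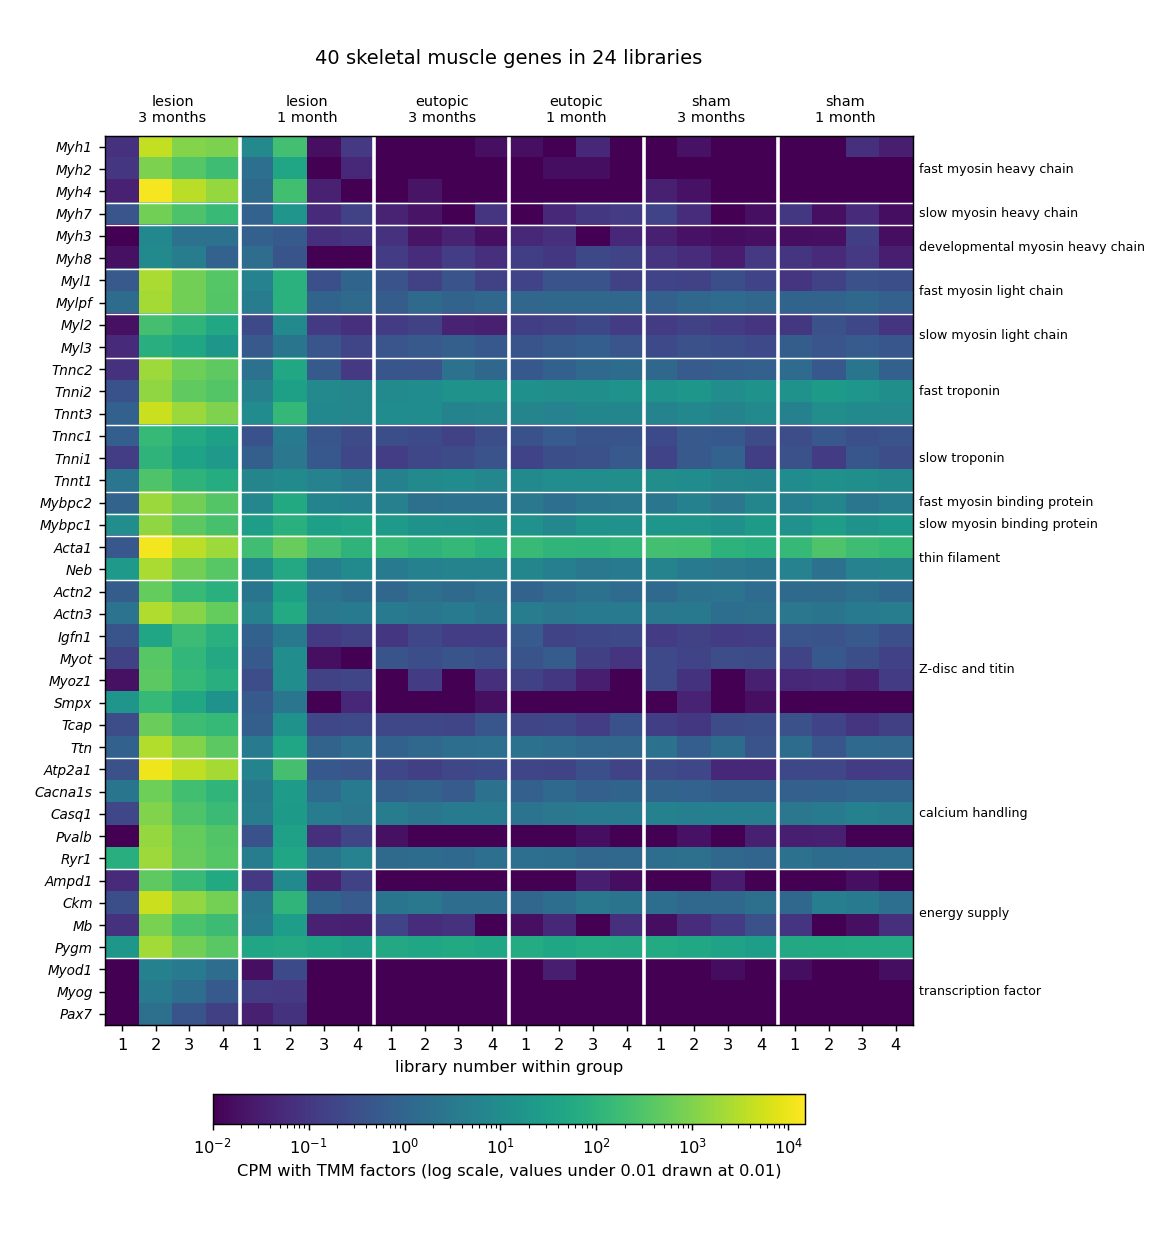
Levels of the 40 skeletal muscle genes (rows, grouped by role) in each of the 24 libraries (columns, by group), in CPM with TMM factors on a log colour scale, values under 0.01 drawn at 0.01. Lesion libraries 2, 3 and 4 at 3 months lie above all uterine libraries in every row and lesion library 2 at 1 month in 38 of the 40, while the uterine libraries are lit mainly in Acta1, Pygm, Mybpc1, Tnni2, Tnnt1 and Tnnt3.

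As a share of all reads, the genes took 6.32%, 2.55% and 1.24% in lesion libraries 2, 3 and 4 at 3 months and 0.0154% in library 1. At 1 month they took 0.197% in lesion library 2 and 0.022% to 0.0367% in the others, against 0.0188% to 0.0467% in uterus. Acta1 alone made up much of the uterine sum. Without it the remaining 39 genes summed to 155, 68700, 22800 and 12300 CPM in the 3-month lesions and to 177, 1830, 121 and 126 CPM in the 1-month lesions, against 95.5 to 160 CPM in uterus.

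Counted gene by gene, all 40 lay above the highest of the 16 uterine libraries in lesion libraries 2, 3 and 4 at 3 months, where 30.0%, 23.1% and 27.6% of the 22249 genes kept by the expression filter did so. In library 1 at 3 months 13 lay above (27.3% of all genes) and 13 below the lowest uterine library (28.1% of all genes), with 5 at 0 counts. At 1 month, 26, 38, 6 and 11 of the 40 lay above the uterine range in libraries 1 to 4, beside 16.5%, 22.7%, 15.4% and 21.5% of all genes. Library 1 at 1 month thus had many muscle genes above uterus although its sum was among the uterine sums. Since lesion values chose the genes, nothing is read from these shares.

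The fast myosin heavy chains had few uterine reads and a wide range of levels among lesions. Myh4 was at 0.0374, 12200, 3510 and 1580 CPM in the 3-month lesions and at 1.38, 198, 0.0368 and 0 CPM in the 1-month lesions, against 0 to 0.0349 CPM in the 16 uterine libraries, which held 4 reads of it in all. Eutopic uterus at 3 months held 1 read of Myh4, and the 3-month lesions together held 775757, of which 524350 were from library 2. These pooled reads give a ratio of 832000 with an exact counting interval from 149000 to 32900000. The interval covers counting error only, not the spread between libraries. Lesion library 1 at 3 months was as low as uterus, and the other 3 libraries of that group lay orders of magnitude above it.

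Myh1, the IIx chain, was at 0.0749, 3970, 1050 and 922 CPM in the 3-month lesions and at 8.15, 219, 0.0184 and 0.105 CPM in the 1-month lesions, against 0 to 0.0715 CPM in uterus. Myh2, the IIa chain, was at 0.0936, 920, 346 and 183 CPM in the 3-month lesions and at 1.85, 44.7, 0 and 0.0525 CPM in the 1-month lesions, against 0 to 0.017 CPM in uterus. No read of Myh2 was counted in eutopic uterus at 3 months, so the 3-month lesion mean was at least 25100-fold higher, taking 3 counts over the group as the floor. The slow chain Myh7 was at 0.43, 739, 288 and 147 CPM in the 3-month lesions and at 0.878, 16.9, 0.0552 and 0.158 CPM in the 1-month lesions, against 0 to 0.174 CPM in uterus. All 4 adult chains thus had the same order of libraries at 3 months, library 2 highest and library 1 lowest, with uterus near 0.

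The developmental chains ranked 38 and 39 of the 40 per kilobase of exon in library 3 at 3 months. Myh3, embryonic, was at 0, 7.45, 2.11 and 2.07 CPM in the 3-month lesions and at 0.788, 0.56, 0.0736 and 0.0875 CPM in the 1-month lesions, against 0 to 0.143 CPM in uterus. Myh8, perinatal, was at 0.0187, 8.87, 3.95 and 0.888 CPM in the 3-month lesions and at 1.61, 0.4, 0 and 0 CPM in the 1-month lesions, against 0.0319 to 0.215 CPM in uterus. At 1 month these 2 genes and Myog were highest in library 1, unlike the other 37 genes, which were highest in library 2. For Myog this rests on 7 reads in library 1 against 4 in library 2, too few to order the libraries.

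Among the reads of the 6 heavy chain genes, Myh4 took 68.4%, 67.5% and 55.7% in lesion libraries 2, 3 and 4 at 3 months, with exact 95% intervals of 68.3% to 68.5%, 67.3% to 67.7% and 55.4% to 56.0%. Myh1 took 22.2%, 20.2% and 32.6% there, and Myh7 4.14%, 5.54% and 5.18%. Library 4 therefore had a smaller share of Myh4 and a larger share of Myh1 than libraries 2 and 3, although its level of Myh1 was the lowest of the 3. In library 2 at 1 month Myh1 took 45.7% (44.9% to 46.4%) and Myh4 41.3% (40.6% to 42.0%) of 18022 reads. In library 1 at 1 month Myh1 took 55.6% (52.1% to 59.1%) and Myh4 9.41% (7.5% to 11.6%) of 818 reads.

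The developmental chains together took 0.0914%, 0.116% and 0.105% of the heavy chain reads in lesion libraries 2, 3 and 4 at 3 months and 0.2% in library 2 at 1 month. In library 1 at 1 month they took 16.4% (13.9% to 19.1%; 134 of 818 reads). The interval of that share lay above those of the other 4 lesions with over 800 heavy chain reads. The remaining lesions held 35 heavy chain reads (library 1 at 3 months), 10 (library 3 at 1 month) and 23 (library 4 at 1 month), too few to order the chains. The intervals cover counting error only, and the heavy chain genes on chromosome 11 are close paralogs (Myh1, Myh2, Myh3, Myh4 and Myh8), between which the authors' counting could split reads.

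**Figure D2:**
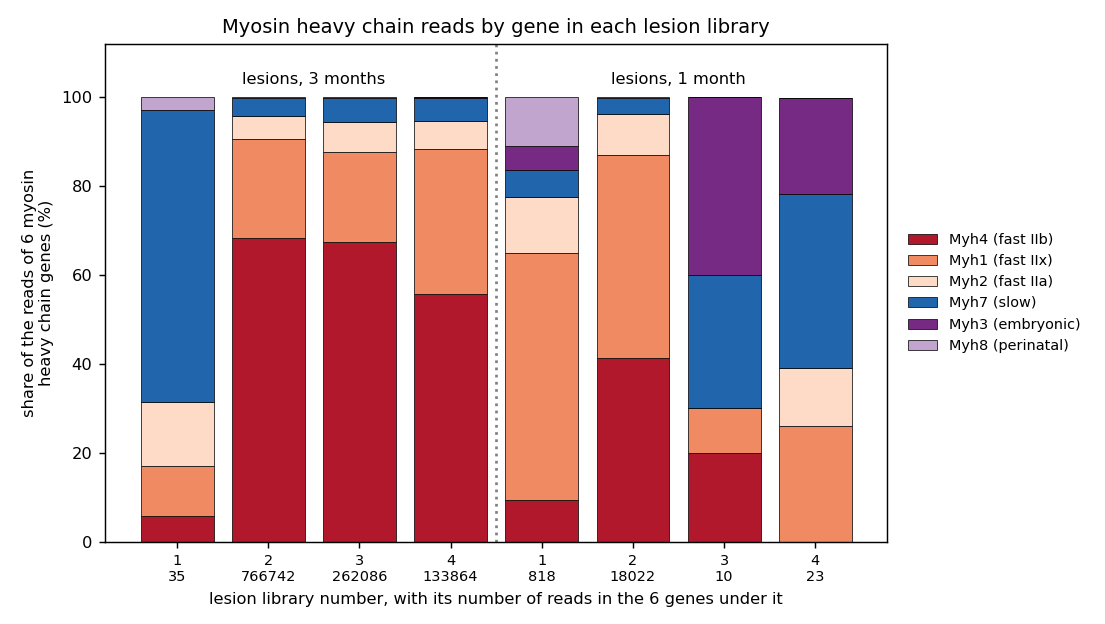
Share of the reads of 6 myosin heavy chain genes (y axis, %) that each gene took in the 8 lesion libraries (x axis, with the number of reads under each). Myh4 leads in libraries 2, 3 and 4 at 3 months at 68.4%, 67.5% and 55.7%, Myh1 leads in libraries 1 and 2 at 1 month at 55.6% and 45.7%, and the bars of 10, 23 and 35 reads are shown for completeness.

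At 3 months the light chains and troponins had the same highest library, library 2, and the same lowest, library 1. Myl1, the fast essential light chain, was at 0.524, 2530, 731 and 361 CPM in the 3-month lesions and at 5.59, 89.7, 0.331 and 0.998 CPM in the 1-month lesions, against 0.0832 to 0.386 CPM in uterus. Mylpf, the fast regulatory light chain, was at 1.52, 2190, 716 and 340 CPM in the 3-month lesions and at 4.21, 85.6, 0.975 and 1.37 CPM in the 1-month lesions, against 0.675 to 1.45 CPM in uterus. Among the 1-month lesions, libraries 1, 2 and 4 lay above the uterine range in Myl1, and libraries 1 and 2 in Mylpf.

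The slow light chains were high in the same 3-month libraries. Myl2, the slow and ventricular regulatory chain, was at 0.0187, 228, 110 and 51.0 CPM in the 3-month lesions and at 0.233, 8.74, 0.11 and 0.07 CPM in the 1-month lesions, against 0.0355 to 0.336 CPM in uterus. Myl3, the slow and ventricular essential chain, was at 0.0562, 75.5, 42.7 and 18.1 CPM in the 3-month lesions and at 0.537, 2.53, 0.423 and 0.193 CPM in the 1-month lesions, against 0.227 to 0.734 CPM in uterus. Only library 2 of the 1-month lesions exceeded uterus in these 2 genes.

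Fast troponins are the calcium switch of fast fibres. Tnnt3, fast troponin T, was at 0.842, 4810, 1750 and 971 CPM in the 3-month lesions and at 9.73, 131, 7.71 and 7.33 CPM in the 1-month lesions, against 5.22 to 11.5 CPM in uterus. Tnni2, fast troponin I, was at 0.356, 1440, 465 and 331 CPM in the 3-month lesions and at 4.86, 33.2, 8.13 and 7.05 CPM in the 1-month lesions, against 8.6 to 23.3 CPM in uterus. Both had a uterine background that lesion library 1 at 3 months did not reach. In Tnni2, libraries 1, 3 and 4 at 1 month also lay below the lowest uterine value. Tnnc2, fast troponin C, was at 0.0749, 1880, 652 and 430 CPM in the 3-month lesions and at 2.15, 46.9, 0.552 and 0.105 CPM in the 1-month lesions, against 0.415 to 2.47 CPM in uterus. Of the 800 exon bases of Tnnc2, 592 overlap Ube2c on the other strand, and whether counting used strand is not given in the sources used here.

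Of the slow troponins, Tnnt1 was at 2.6, 296, 105 and 68.3 CPM in the 3-month lesions and at 6.45, 9.12, 5.57 and 3.29 CPM in the 1-month lesions, against 5.09 to 12.9 CPM in uterus. Its 1-month lesion mean was 0.595 times the eutopic mean, 6.11 against 10.3 CPM. Tnni1 was at 0.131, 106, 37.6 and 22.3 CPM in the 3-month lesions and at 0.752, 2.88, 0.497 and 0.21 CPM in the 1-month lesions, against 0.124 to 0.894 CPM in uterus. Tnnc1, which slow fibres share with heart, was at 0.711, 138, 59.9 and 31.8 CPM in the 3-month lesions and at 0.358, 3.44, 0.441 and 0.263 CPM in the 1-month lesions, against 0.154 to 0.593 CPM in uterus. Tnnt1 showed no 1-month lesion above uterus, and Tnni1 and Tnnc1 showed library 2 alone.

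Fast and slow isoforms were set against each other in 7 pairs: heavy chains, essential light chains, regulatory light chains, troponins T, I and C, and myosin binding protein C. Summed over the pairs, fast isoforms took 91.3%, 90.4% and 90.5% of fast plus slow reads in lesion libraries 2, 3 and 4 at 3 months and 87.8% in library 2 at 1 month. The 16 uterine libraries lay between 45.5% and 55.4%, shares that rest mainly on background reads of Mybpc1, Tnnt1, Tnni2 and Tnnt3. Of the 1465 slow reads of eutopic library 1 at 3 months, for example, Mybpc1 made up 1148. Of its 1308 fast reads, Tnnt3 made up 533 and Tnni2 446, and its heavy chain pair held 0 fast and 2 slow reads. The uterine shares are thus no measure of fibre type. Per exon length, those 4 lesion libraries were at 93.8%, 93.1%, 93.3% and 91.7%, against 63.1% to 71.9% in the uterine libraries. By reads, lesion library 1 at 1 month was at 54.1% (52.6% to 55.5%), and libraries 3 and 4 at 38.4% (36.8% to 40.1%) and 33.1% (31.6% to 34.6%). Library 1 at 3 months was lowest, at 23.3% (20.7% to 26.0%). In libraries 1, 3 and 4 at 1 month Mybpc1 alone made up 1616 of 2130, 1706 of 2092 and 2328 of 2567 slow reads. In library 1 at 3 months it made up 574 of 785. The low shares there thus rest largely on 1 gene, whose pair, as given below, does not separate fibre types like the others. The choice of summary matters for the muscle-poor libraries: as a median over the pairs, library 1 at 1 month was at 86.6%.

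In the heavy chains the fast share was 95.9%, 94.5% and 94.8% in lesion libraries 2, 3 and 4 at 3 months, and 92.8% and 96.5% in libraries 1 and 2 at 1 month. The essential light chains gave 97.1%, 94.5% and 95.2% in those 3-month libraries, and the regulatory light chains 90.6%, 86.7% and 87.0%. Troponin T gave 94.2%, 94.3% and 93.4%, troponin I 93.1%, 92.5% and 93.7%, and troponin C 93.1%, 91.6% and 93.1%. In 6 of the 7 pairs the fast share in these 3 libraries thus stayed between 86.7% and 97.1%. In library 1 at 1 month the pair of troponin T was at 60.1% (56.9% to 63.3%), beside 92.8% (90.6% to 94.7%) in the heavy chains, and both troponin T genes were within their uterine ranges there.

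Myosin binding protein C, which ties myosin to actin in the thick filament, was the exception. Mybpc2, the fast form, took 55.2%, 64.2% and 59.1% of the pair in lesion libraries 2, 3 and 4 at 3 months and 41.4% in library 2 at 1 month. Mybpc1, called the slow form, is also made by fast fibres, so this pair does not separate fibre types as the others do. Mybpc1 was at 10.7, 1440, 415 and 233 CPM in the 3-month lesions and at 29.0, 81.8, 31.4 and 40.8 CPM in the 1-month lesions, against 7.29 to 28.8 CPM in uterus. All 4 of its 1-month lesion values were above the highest uterine value. Mybpc2 was at 0.936, 1780, 746 and 338 CPM in the 3-month lesions and at 7.06, 57.8, 6.23 and 5.23 CPM in the 1-month lesions, against 1.8 to 6.88 CPM in uterus.

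**Figure D3:**
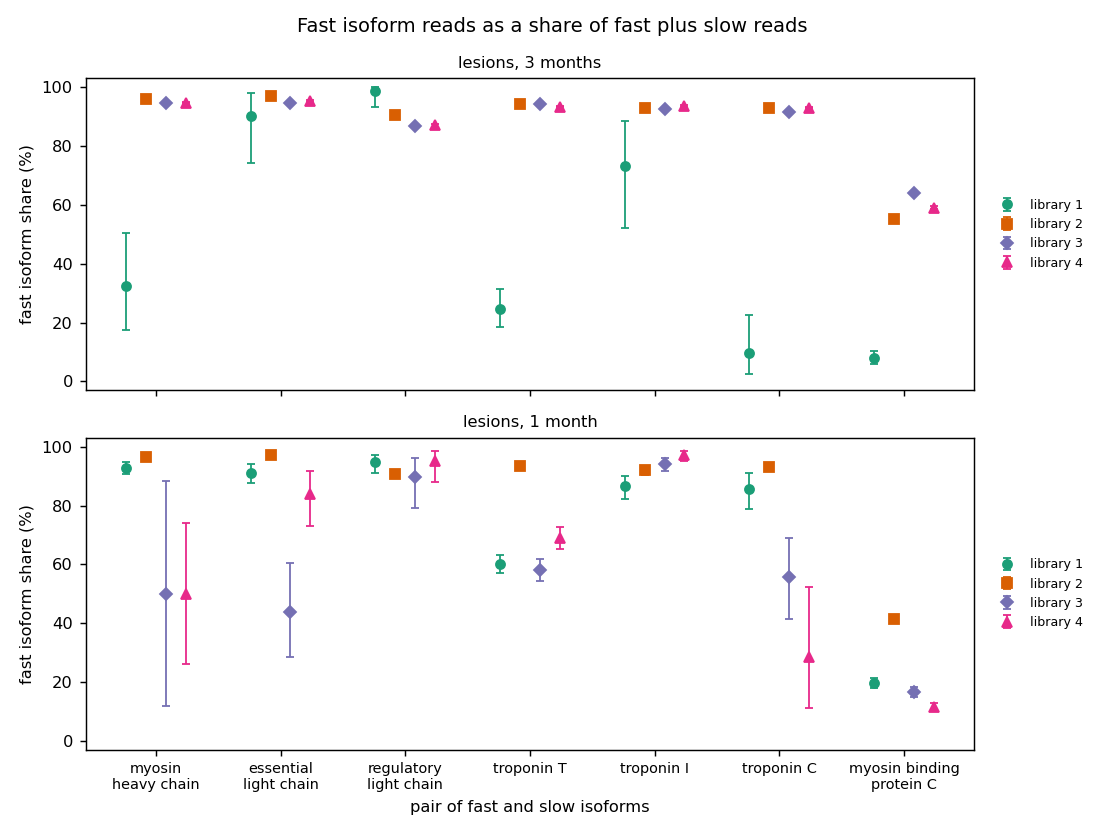
Reads of the fast isoform as a share of fast plus slow reads (y axis, %) for each of 7 isoform pairs (x axis) in the lesion libraries at 3 months (upper panel) and 1 month (lower panel), with exact 95% intervals. Libraries 2, 3 and 4 at 3 months and library 2 at 1 month lie together at 86.7% to 97.3% in all pairs but myosin binding protein C, while the other libraries spread from 8.01% to 98.8%.

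Among the thin filament, Z-disc and giant proteins, Acta1 was at 0.487, 11400, 3570 and 1850 CPM in the 3-month lesions and at 193, 543, 212 and 102 CPM in the 1-month lesions, against 73.3 to 299 CPM in uterus. Only library 2 of the 1-month lesions exceeded uterus, while library 1 of the 3-month lesions lay far below it. Per kilobase of exon, Acta1 ranked first of the 40 in libraries 2, 3 and 4 at 3 months, at 7440, 2330 and 1210 CPM per kilobase, and also first in the uterine median. Its sequence is close to the other actins (Acta2, Actg2, Actc1), which are abundant in smooth muscle or heart, and reads could be split between them.

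Neb (nebulin, the thin filament ruler) was at 20.6, 2480, 743 and 371 CPM in the 3-month lesions and at 7.63, 53.8, 4.65 and 8.51 CPM in the 1-month lesions, against 2.03 to 6.89 CPM in uterus. Ttn (titin, the spring that spans the sarcomere) was at 0.824, 2840, 998 and 426 CPM in the 3-month lesions and at 3.48, 42.8, 0.92 and 1.65 CPM in the 1-month lesions, against 0.385 to 2.02 CPM in uterus. Actn3, the Z-disc actinin of fast fibres, was at 2.23, 2730, 1150 and 512 CPM in the 3-month lesions and at 4.98, 58.3, 2.89 and 3.55 CPM in the 1-month lesions, against 1.71 to 4.13 CPM in uterus. Neb alone of these 3 was above uterus in library 1 at 3 months. Actn2, Myot, Myoz1 and Tcap, other Z-disc proteins, reached 382 to 573 CPM in library 2 at 3 months and 10.7 to 33.2 CPM in library 2 at 1 month.

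Igfn1, a Z-disc protein, and Smpx, a small protein of muscle under load, departed from the common order. Igfn1 was at 0.393, 42.4, 168 and 84.2 CPM in the 3-month lesions and at 0.824, 3.07, 0.11 and 0.158 CPM in the 1-month lesions, against 0.0964 to 0.578 CPM in uterus. It was the only member highest in library 3 at 3 months. Smpx was at 16.6, 134, 47.7 and 13.9 CPM in the 3-month lesions and at 0.555, 2.69, 0 and 0.0525 CPM in the 1-month lesions, against 0 to 0.0404 CPM in uterus. It was the only member not lowest in library 1 at 3 months.

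Per kilobase of exon, the calcium pump Atp2a1 ranked second of the 40 in library 3 at 3 months. This pump, which refills the calcium store of fast fibres, was at 0.337, 10600, 3880 and 2180 CPM in the 3-month lesions and at 5.77, 232, 0.515 and 0.42 CPM in the 1-month lesions, against 0.0479 to 0.315 CPM in uterus. All 8 lesion libraries were above the highest uterine library in this gene, 3 of them by little (0.337, 0.42 and 0.515 CPM). The lesion mean was 20300 times the eutopic mean at 3 months and 272 times the eutopic mean at 1 month. Of its 3477 exon bases, 763 overlap Rabep2 on the other strand. Pvalb, the calcium buffer of fast fibres, was at 0, 1610, 515 and 323 CPM in the 3-month lesions and at 0.358, 33.7, 0.0736 and 0.193 CPM in the 1-month lesions, against 0 to 0.0354 CPM in uterus.

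Ryr1, the calcium release channel, was at 72.5, 1850, 557 and 345 CPM in the 3-month lesions and at 4.14, 45.3, 2.57 and 5.37 CPM in the 1-month lesions, against 1.03 to 1.96 CPM in uterus. Every lesion library was above uterus in Ryr1, and per kilobase it ranked 3 of the 40 in library 1 at 3 months, against 22 in uterus. Cacna1s, the voltage sensor that opens Ryr1, reached 656 CPM in library 2 at 3 months and 26.2 CPM in library 2 at 1 month, against 0.579 to 2.17 CPM in uterus. Casq1, the calcium store protein, reached 1040 and 22.8 CPM in the same libraries, against 2.19 to 5.29 CPM in uterus.

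For energy supply, Ckm (muscle creatine kinase) was at 0.299, 4720, 1490 and 775 CPM in the 3-month lesions and at 2.72, 111, 0.956 and 0.595 CPM in the 1-month lesions, against 1.09 to 4.48 CPM in uterus. Mb (myoglobin, the oxygen store of oxidative fibres) was at 0.0749, 840, 269 and 168 CPM in the 3-month lesions and at 3.74, 26.9, 0.0368 and 0.035 CPM in the 1-month lesions, against 0 to 0.333 CPM in uterus. Mb in library 1 at 1 month was above every uterine library, and Ckm in that library was among them. Ampd1, muscle AMP deaminase, reached 437 CPM in library 2 at 3 months, and no read of it was counted in eutopic uterus at 3 months, so the lesion mean of 163 CPM was at least 11300-fold higher.

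Pygm, the glycogen phosphorylase of muscle, had a uterine level second to Acta1 per kilobase. It was at 18.3, 2140, 715 and 389 CPM in the 3-month lesions and at 45.6, 54.5, 37.4 and 29.5 CPM in the 1-month lesions, against 29.6 to 63.7 CPM in uterus. The 1-month lesion mean was 0.759 times the eutopic mean, 41.7 against 55.0 CPM. No 1-month lesion exceeded uterus in Pygm, not even library 2.

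The transcription factors of muscle precursors were counted in few reads and had almost no background. Myod1, which commits cells to the muscle lineage, was at 0, 5.26, 3.38 and 1.65 CPM in the 3-month lesions and at 0.0179, 0.24, 0 and 0 CPM in the 1-month lesions, with 5 reads in the 16 uterine libraries together. Myog, which drives their differentiation, was at 0, 3.77, 1.73 and 0.55 CPM in the 3-month lesions and at 0.125, 0.107, 0 and 0 CPM in the 1-month lesions. Pax7, the factor of satellite cells, was at 0, 1.86, 0.397 and 0.148 CPM in the 3-month lesions and at 0.0358, 0.08, 0 and 0 CPM in the 1-month lesions. Neither Myog nor Pax7 had a read in any uterine library, and both failed the filter on low counts in every fit.

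Against the floor of 3 counts over the eutopic group at 3 months, the 3-month lesion means were at least 178-fold higher for Myod1, at least 105-fold for Myog and at least 41.8-fold for Pax7. The 1-month lesions held 10 reads of Myod1, 11 of Myog and 5 of Pax7 in all 4 libraries together.

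The proportions of the 40 genes were compared between the lesions with the highest sums. The log2 ratio of library 3 to library 2 at 3 months had a median of -1.60 over the 40 (0.33 times), with quartiles of -1.70 and -1.40. In 39 of the 40 it lay within 1 log2 unit of that median and in 35 within 0.5 unit, the exception at 1 unit being Igfn1 at 1.99. Library 4 to library 2 had a median of -2.42 (0.187 times), with 38 of 40 within 1 unit, 32 of 40 within 0.5 unit and extremes of -3.65 for Pax7 and 0.99 for Igfn1. Library 2 at 1 month to library 2 at 3 months had a median of -5.17 (0.0277 times), with 36 of 40 within 1 unit, 27 of 40 within 0.5 unit and extremes of -6.05 for Ttn and -3.74 for Myh3. Library 1 at 1 month was farther from common proportions: its ratio to library 2 at 3 months had a median of -8.47, with 18 of 40 within 1 unit, from -13.11 for Myh4 to -2.46 for Myh8. The ratios are across genes, which are not independent replicates, and in low genes they include the uterine background.

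**Figure D4:**
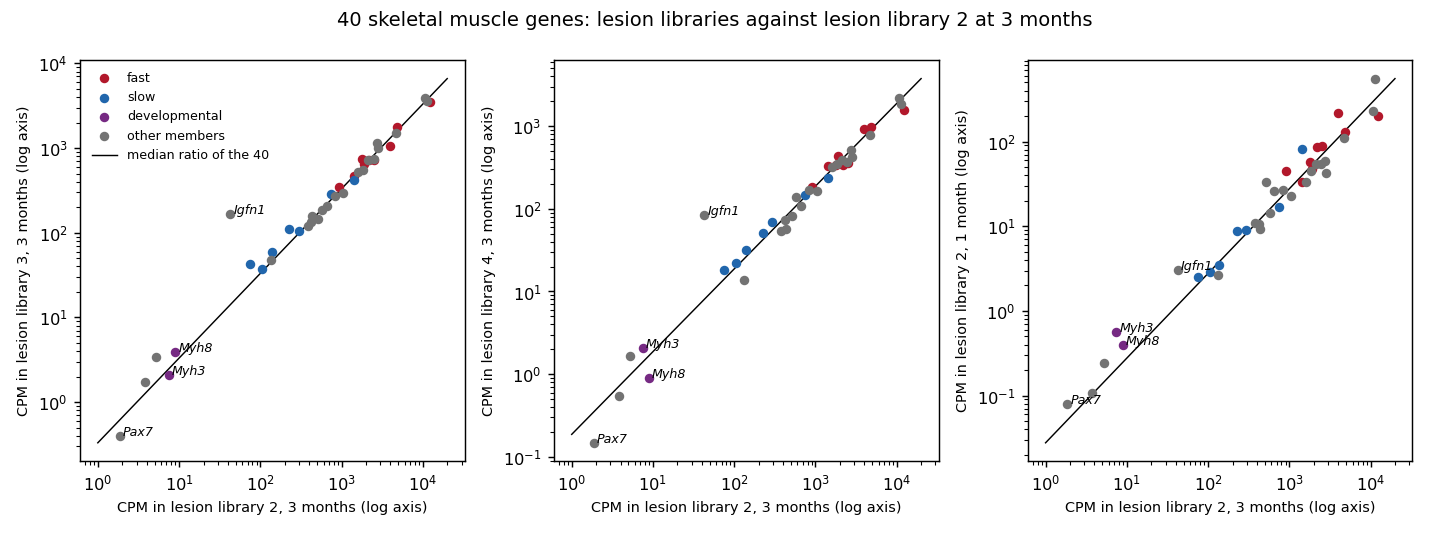
CPM of the 40 genes in lesion libraries 3 and 4 at 3 months and lesion library 2 at 1 month (y axes) against lesion library 2 at 3 months (x axes), all on log axes, coloured by fibre type. The line marks the median ratio of the 40 genes, log2 -1.60, -2.42 and -5.17 from left to right, and Igfn1 stands above it in the first 2 panels.

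At 3 months, 38 of the 40 genes were highest in library 2 and lowest in library 1. Lesion library 1, the library rich in ovarian genes, held 0 reads of Myh3, Pvalb, Myod1, Myog and Pax7, and its sum of 156 CPM came mainly from Ryr1 at 72.5, Neb at 20.6, Pygm at 18.3, Smpx at 16.6 and Mybpc1 at 10.7 CPM. Of those 5, Ryr1, Neb and Smpx were above their uterine ranges. The 3 fast heavy chains together were at 0.206 CPM there. Whether the other tissue in this library bears on Ryr1, Neb and Smpx was not tested.

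In uterus, where no lesion value enters, the 40 genes could be tested. Of them, 25 passed the filter on low counts in the fit of the 16 uterine libraries, and none was called at an adjusted p under 0.05 by edgeR's quasi-likelihood test in any of 5 comparisons, among 21208 genes. DESeq2 called 0 of them as well. For eutopic against sham uterus at 1 month, edgeR called 0.00943% of all genes, and an unadjusted p under 0.05 was found for 2 of the 25 members and 1020 of the 21208 genes. At 3 months it called 0% of all genes, with 2 members and 1012 genes under 0.05 unadjusted. For 3 months against 1 month it called 0.00943% in eutopic uterus (2 members and 521 genes unadjusted) and 0% in sham uterus (4 members and 2274 genes unadjusted). For the change of the difference between eutopic and sham uterus with time it called 0.00943% (1 member and 735 genes unadjusted).

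Acta1 had a log2 fold change of -0.63 ± 0.32 (SE) in eutopic against sham uterus at 1 month (edgeR adjusted p = 0.876) and of -0.33 ± 0.31 at 3 months (edgeR adjusted p = 0.992). It was at 106 to 147 CPM in eutopic uterus at 1 month, against 136 to 299 CPM in sham uterus at 1 month, and the groups overlapped. Pygm had -0.05 ± 0.17 at 1 month and 0.18 ± 0.17 at 3 months (edgeR adjusted p = 0.974 and 0.992). The smallest adjusted p of any member was that of Igfn1 in sham uterus at 3 months against 1 month, 0.273 by edgeR, with a log2 fold change of -1.55 ± 0.37. Igfn1 was at 0.122 to 0.161 CPM in sham uterus at 3 months, against 0.321 to 0.518 CPM in sham uterus at 1 month, without overlap. Myl3, the slow essential light chain, chosen after its values were seen, had 0.98 ± 0.28 in eutopic against sham uterus at 3 months (edgeR adjusted p = 0.992), with 0.424 to 0.734 CPM in eutopic uterus against 0.227 to 0.343 CPM in sham uterus. A miss of the threshold does not show that the levels were equal.

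As a description, the fit of all 24 libraries called 38 of the 38 members it kept higher in lesions than in eutopic uterus at 3 months (23.4% of all genes called higher), with a median log2 fold change of 8.92 over the 38 and 0.04 over all genes. Lesion values chose these genes, and 13 of the 38 passed the filter on low counts only when lesions entered the fit, so the count restates the choice. At 1 month the fit called 14 of 38 higher (12.0% of all genes), with medians of 3.10 and -0.01. For lesions at 3 months against 1 month it called 33 of 38 higher (6.52% of all genes), with medians of 5.49 and 0.06. At 1 month the count was 1 of 39 without lesion library 2. Without eutopic library 1, 2, 3 or 4 the count was 9, 7, 7 and 7. The count of 33 became 21 and 20 without 1-month lesion library 1 or 3 and 20 without 3-month lesion library 2. It became 0 of 38 when only the lesion libraries entered the fit. The shares of all genes called in these alternative runs are not given here, so nothing about the members is read from the changes.

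Other skeletal muscle genes, a list of 60 that holds further proteins of the sarcomere, the triad and the mitochondria of muscle, were read beside the 40. In lesion libraries 1 to 4 at 3 months, 12, 57, 54 and 50 of the 60 lay above every uterine library, and at 1 month 20, 42, 4 and 12. The shares of all genes were 27.3%, 30.0%, 23.1% and 27.6% at 3 months and 16.5%, 22.7%, 15.4% and 21.5% at 1 month. The list was chosen with these levels known, and nothing is read from its counts. Library 1 at 3 months and libraries 3 and 4 at 1 month lay near or below those shares. The genes of this list with the highest CPM are shared with smooth muscle. Tpm1, a tropomyosin, was at 550, 3590, 2320 and 1420 CPM in the 3-month lesions, against 1100 to 2040 CPM in uterus. Tpm2 was at 153, 3240, 1320 and 1150 CPM, against 882 to 1530 CPM in uterus, and Atp2a2, the calcium pump of slow and smooth muscle, was at 434, 797, 591 and 426 CPM, against 301 to 474 CPM in uterus.

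Genes of satellite cells, the nerve contact and regeneration made a list of 22, of which 17 were tested. In 3-month lesions 13 were called higher (23.4% of all genes) and 1 lower (17.1%) than in eutopic uterus. At 1 month 3 were called higher (12.0% of all genes) and 0 lower (8.76%). This list too was chosen with earlier results known. Myf6, the factor of mature fibres, was at 0, 27.6, 7.75 and 2.47 CPM in the 3-month lesions, against 0 to 0.154 CPM in uterus. Chrna1, the acetylcholine receptor subunit, was at 0, 11.9, 6.2 and 5.67 CPM there, against 0.0166 to 0.28 CPM in uterus. Musk, the kinase of the nerve contact, was at 1.12, 8.04, 3.0 and 1.84 CPM there, against 0.158 to 0.697 CPM in uterus. Myf6, Chrna1 and Musk were lowest in library 1 of the 3-month lesions. Other genes of the list were not, and these were named after their values were seen. Cdh15, a cadherin of satellite cells, was at 7.81, 9.22, 3.2 and 1.86 CPM in the 3-month lesions, Megf10 at 6.29, 1.44, 0.755 and 0.423 CPM, Rapsn at 4.83, 8.36, 3.28 and 2.58 CPM and Myf5 at 0.992, 1.02, 0.179 and 0.0211 CPM. In library 1 all 4 were above their highest uterine values of 0.407, 1.31, 0.52 and 0.177 CPM. The fusion protein Mymx had 0 reads in 7 of the 8 lesion libraries. The genes of the list with the highest CPM, Runx1, Ncam1 and Heyl, are expressed by many cell types. Runx1 was at 62.0, 88.4, 77.0 and 84.2 CPM in the 3-month lesions and at 32.7 to 53.7 CPM in the 1-month lesions, against 9.44 to 24.9 CPM in uterus. Ncam1 was at 26.4, 84.2, 36.0 and 54.2 CPM in the 3-month lesions, against 18.9 to 67.4 CPM in uterus, and Heyl at 105, 16.5, 17.9 and 11.2 CPM, against 20.6 to 38.3 CPM in uterus.

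Heart muscle shares the slow isoforms, so 12 cardiac genes were read beside them. They summed to 95.8, 50.1, 21.8 and 32.2 CPM in the 3-month lesions and to 32.9, 21.5, 31.8 and 21.8 CPM in the 1-month lesions, against 23.5 to 55.7 CPM in uterus. Nkx2-5, the defining cardiac factor, had 0 reads in 6 of the 8 lesion libraries and 0.0233 CPM in library 2 at 3 months. Myh6, a heavy chain of heart muscle, was at 33.8 CPM in library 2 at 3 months and at 0.562 CPM or less in the other lesions. Tnni3 was at 38.9, 4.82, 3.71 and 12.1 CPM in the 3-month lesions, Tnnt2 at 4.98, 3.91, 6.2 and 5.33 CPM and Ryr2 at 33.3, 0.769, 3.75 and 1.97 CPM. Library 2, richest in skeletal muscle genes, was the lowest 3-month lesion in Tnnt2 and Ryr2.

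Genes of other tissues also differed between lesion libraries. The 13 adipocyte genes summed to 505, 8630, 2330 and 777 CPM in the 3-month lesions and to 1230, 456, 344 and 1660 CPM in the 1-month lesions, against 45.9 to 277 CPM in uterus. Car3, which fat and slow muscle both make, was at 50.0, 6370, 1830 and 579 CPM in the 3-month lesions. Fabp4, the fatty acid carrier of adipocytes, was at 14.3, 665, 134 and 45.2 CPM, and Cfd, adipsin, at 11.2, 390, 120 and 49.7 CPM. Car3, Fabp4 and Cfd had the same order of libraries as the summed muscle genes. Plin4, Plin1, Lipe and Pck1 of the list, named after their values were seen, were not lowest in library 1. Plin4 was highest there, at 316, 198, 52.4 and 25.5 CPM in libraries 1 to 4. At 1 month the order differed: Cfd was at 241, 58.2, 71.7 and 373 CPM, Fabp4 at 150, 57.5, 40.7 and 266 CPM and Car3 at 513, 227, 117 and 587 CPM. Library 4 was highest in all 3 there, and library 2, highest in muscle genes, was lowest or next to lowest. The part of fat in the muscle levels was not tested.

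The 12 smooth muscle genes summed to 2990, 3510, 8530 and 9290 CPM in the 3-month lesions, against 9790 to 19500 CPM in uterus. Acta2, smooth muscle actin, was at 803, 243, 1870 and 1730 CPM there, Myh11 at 601, 233, 1260 and 1730 CPM and Mylk at 615, 231, 1350 and 1580 CPM, against at least 2080, 1540 and 1780 CPM in uterus. Library 2 at 3 months was the lowest lesion library in these 3 genes, but not in the sum. Des, desmin, which skeletal fibres make too, was at 105, 1500, 1100 and 1460 CPM in the 3-month lesions, against 657 to 1270 CPM in uterus, and Hspb6, a small heat shock protein, at 8.95, 468, 127 and 69.1 CPM, against 13.7 to 34.5 CPM in uterus. These 2 genes, named after their values were seen, were highest in library 2. The 10 uterine genes summed to 216, 158, 994 and 535 CPM in the 3-month lesions and to 1520, 997, 1510 and 1150 CPM in the 1-month lesions, against 1610 to 1990 CPM in uterus. Hoxa10, a defining gene of the uterus, was at 0.842, 13.5, 232 and 111 CPM in the 3-month lesions, Pgr at 7.09, 14.5, 161 and 60.8 CPM and Esr1 at 134, 102, 272 and 160 CPM. Libraries 1 and 2 at 3 months thus had the lowest sums of the 10 uterine genes. Ihh, another gene of that list, was at 35.2 CPM in library 1 at 3 months, within its uterine range of 17.0 to 79.6 CPM.

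The ovarian genes were led by Cyp11a1, Hsd3b1 and Star at 7560, 6110 and 6020 CPM in library 1 at 3 months, and Cyp11a1 was at 78.8 CPM in library 2 there. The pancreatic genes Ctrb1, Pnlip and Cela1 were at 25600, 19700 and 14300 CPM in library 2 at 1 month, the muscle-richest library of its group. Tendon and cartilage genes, 10 in all, summed to 237, 501, 211 and 511 CPM in the 3-month lesions, against 28.2 to 51.4 CPM in uterus, with Thbs4 at 131, 168, 119 and 239 CPM, Fmod at 17.3, 305, 77.2 and 238 CPM and Mkx at 46.3, 3.82, 4.57 and 9.85 CPM. Their order differed from that of the muscle genes. Mesothelial genes summed to 173, 516, 343 and 325 CPM in the 3-month lesions, against 291 to 494 CPM in uterus, with Krt19 at 11.6, 29.1, 145 and 144 CPM, Wt1 at 91.5, 110, 86.7 and 74.5 CPM and Upk3b at 23.9, 135, 34.5 and 29.1 CPM. Nerve genes summed to 186, 291, 253 and 242 CPM, against 206 to 285 CPM in uterus, with Pmp22 at 75.7, 147, 111 and 105 CPM, Mbp at 77.5, 107, 66.0 and 79.8 CPM and Mal at 10.5, 4.24, 55.5 and 33.4 CPM. The bearing of these tissues on the muscle levels was not tested.

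**Figure D5:**
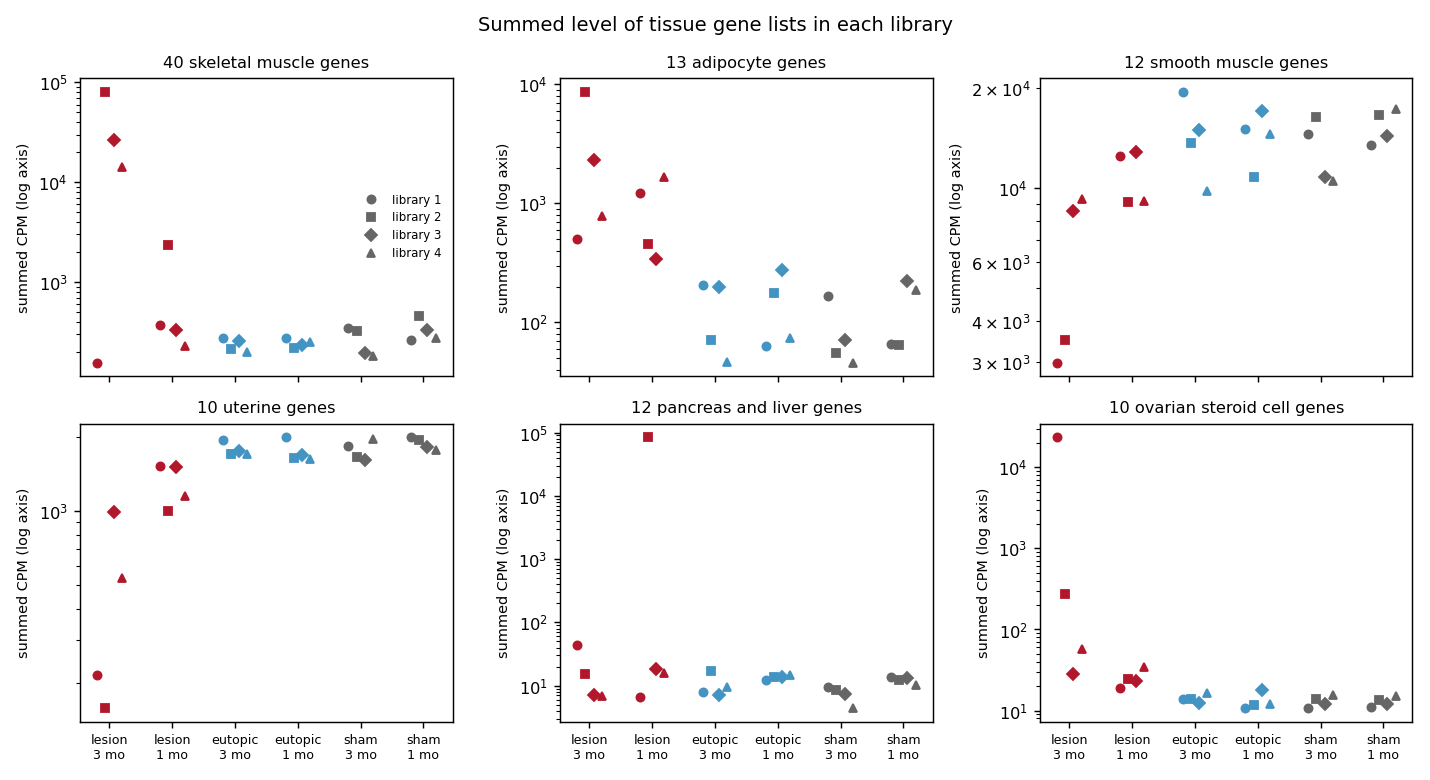
Summed CPM (log axes) of the 40 skeletal muscle genes and of 5 gene lists of other tissues in each library, by group, with a symbol for each library number. Lesion libraries 2, 3 and 4 at 3 months stand at 80200, 26400 and 14100 CPM in muscle genes, library 2 at 1 month stands out in pancreas and liver genes at 83700 CPM, and library 1 at 3 months in ovarian genes at 23300 CPM.

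The genes whose pattern was most like the sum of the 40 were found among 14139 others, as the smallest root mean square difference of centred log2 CPM over the 24 libraries. Those reported here were Cmya5 (0.409), Myo18b (0.634), Eno3 (0.646), Hrc (0.727), Adssl1 (0.835), Jsrp1 (0.855), Srl (0.914), Ldb3 (0.943) and Txlnb (0.968). Cmya5, a large protein of the muscle costamere and triad, was at 5.32, 2170, 641 and 303 CPM in the 3-month lesions and at 11.9, 37.8, 9.38 and 8.58 CPM in the 1-month lesions, against 3.82 to 8.75 CPM in uterus. Eno3, the muscle enolase, was at 9.19, 1550, 476 and 282 CPM in the 3-month lesions, against 11.3 to 17.0 CPM in uterus. Like most of the 40, Cmya5 and Eno3 were highest in library 2 and lowest in library 1 of the 3-month lesions.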

How the data were processed

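Total RNA libraries of lesions and uteri were sequenced. The authors deposited whole-number counts of reads per gene; the submitters' processing notes name bcl2fastq 1.9.0, STAR 2.7.9a, edgeR and build mm39. The sources used here name no counter, annotation release or strand setting. Samples were grouped by their labels. Counts were tested with edgeR 4.0.16 in R 4.3.3 (TMM factors, filterByExpr, quasi-likelihood test, group means, Benjamini-Hochberg adjustment over all genes tested, threshold 0.05), in 1 fit of the 16 uterine libraries and 1 of all 24, which was used only to describe lesions. The fits were tested on simulated data. Levels are CPM with TMM factors. Isoform shares have exact Clopper-Pearson 95% intervals (scipy, Python). Exon lengths and overlaps came from GENCODE M21 (build GRCm38), matched by gene identifier without version for 40 of 40. The 40 genes and 11 gene lists were chosen with earlier results of these data known. Named in full were the genes of fibre type, actin, creatine kinase, myoglobin, calcium pump and buffer and transcription factors; of each other list the 3 genes highest in lesions and defining markers at 0; and the 10 genes most like the sum, of which 1 is not reported here.

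Same-numbered eutopic libraries at 3 months and 1 month correlated weakly in their deviations from group means (r = 0.202, 0.152, 0.105 and 0.107). Same-numbered lesion and eutopic libraries at 1 month did so too (r = 0.191, 0.107, 0.179 and 0.073). At 3 months lesion and eutopic libraries had r = 0.116, 0.099, 0.003 and 0.337. Sham uterus at 3 months and eutopic uterus at 1 month, groups of different mice, had r = 0.352, 0.092, 0.047 and 0.072. In eutopic and sham uterus at 1 month the signs were mixed (r = 0.065, -0.046, 0.052 and -0.045). The labels give no pairing, and the main fits used group means only. Replicates of 1 group all differed beyond sampling noise. Alternatives were DESeq2 1.42.0, other normalization and filters, a replicate block, fits of the compared groups alone and leaving out each library.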

Additional observations from a re-analysis of the deposited data

Results flagged for a closer look

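In groups of 4, a library was picked out when its gap to the nearest other library, divided by the range of the group on the log2 CPM scale, passed Dixon's 95% critical value. Of 181 groups checked, each of 1 gene or of the sum, 16 passed. Chance gives about 1 in 20 for a single group, but the genes vary together between libraries, so the 181 are not independent checks. Lesion values chose the genes, so the flags in lesions restate that choice and support nothing. In the 3-month lesions library 1 was the low one for Myh1 (0.861), Myh4 (0.8295), Tnnc2 (0.849), Atp2a1 (0.846) and Pvalb (0.85). In the 1-month lesions library 2 was the high one for Actn2 (0.835), Tnnt3 (0.902), Mybpc2 (0.876) and Myoz1 (0.882). The other 7 were in uterus. Eutopic libraries stood apart at 3 months for Mybpc2 (library 1 high, 0.927) and Tcap (library 4 high, 0.893), and at 1 month for Tnnt1 (library 1 low, 0.847), Atp2a1 (library 3 high, 0.919) and Mybpc1 (library 2 low, 0.933). Sham libraries stood apart at 3 months for Myl1 (library 3 high, 0.876) and at 1 month for Neb (library 2 low, 0.848).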

How the results depend on the processing

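In all 5 uterine comparisons no member was called under any alternative run. For lesions against eutopic uterus at 3 months, 38 members were called, 25 of the 27 tested when only the compared groups were fitted, and 38 to 39 when each library was left out. At 1 month the count of 14 became 26 with DESeq2, 8 with the replicate block, 8 of the 26 tested with the compared groups alone, and 1 to 16 with each library left out. For lesions at 3 months against 1 month the count of 33 became 0 with the compared groups alone and 20 to 39 with each library left out. Leaving out lesion libraries 1 and 2 at 3 months together, chosen after seeing the data, gave 39 members at 3 months and 34 for 3 months against 1 month. The block changed no other call, and by the labels same-numbered samples share only a number. These counts stand without the share of all genes called in the same run, so nothing about the members is read from their changes. The cause of these changes was not tested. As a median over the 7 pairs, the fast share in 3-month lesion libraries 1 to 4 was 32.4%, 93.1%, 92.5% and 93.4%, and in 1-month lesions 86.6%, 93.2%, 55.6% and 69.0%. Per exon length, an alternative added later, it was 39.4%, 93.8%, 93.1% and 93.3% at 3 months and 68.4%, 91.7%, 57.3% and 53.7% at 1 month. The planned scaling by coding length was not run, since no protein lengths were at hand. With each library left out, the log2 fold change of Acta1 in eutopic uterus at 3 months against 1 month ran from -0.2 to 0.05 (0.04 without 1-month library 1 and 0.05 without 3-month library 4), and that of Pygm in eutopic against sham uterus at 1 month from -0.12 to 0.04 (without eutopic library 2); neither was called. Depth limits the isoform shares of the lesions with few muscle reads.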
